A study of Saccharomyces cerevisiae with 6 samples.

Results

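The transcripts of 37 genes of the nuclear pore and of nuclear transport were compared between untreated budding yeast, Saccharomyces cerevisiae, and yeast treated with zymolyase, a preparation of wall-lysing enzymes that acts on β-glucan. The genes were chosen by symbol: 20 nucleoporin genes with a NUP number, and 17 further genes for pore subunits, karyopherins and mRNA export factors. Each was represented by 1 probe set, and all 37 were among the 5394 probe sets of named S. cerevisiae genes that were tested. Both groups held 3 samples of the strain labelled BY4743, given as a MATa/α diploid with the alleles lys2Δ0, ura3Δ0, leu2Δ0, met15Δ0 and his3Δ1, grown in YPD, a rich medium, for 2 days at 25 °C. Treated cells received 30 U/ml of zymolyase for 10 min at 37 °C, and the labels do not give the temperature of the untreated cells at that step, so enzyme and temperature cannot be told apart. RNA was labelled from its 3' end and each sample was hybridised to an Affymetrix array of its own. No label says that the replicates were separate cultures, and the p-values may then measure technical spread only. In bulk RNA, fewer cells that express a gene and less of its RNA per cell cannot be told apart.

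The nuclear pore complex is the channel through which all traffic between nucleus and cytoplasm passes. A scaffold of outer, inner and membrane rings holds nucleoporins rich in phenylalanine-glycine repeats, the FG nucleoporins, whose disordered chains fill the channel and bind passing carriers. The carriers are karyopherins, which take up proteins and some RNAs under the control of the GTPase Ran, and the Mex67-Mtr2 dimer, which exports mRNA.

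Most of these genes changed, and in both directions. With zymolyase 22 of the 37 rose and 9 fell, while 6 did not pass the test, a limma fit across all 5394 probe sets at a Benjamini-Hochberg adjusted p of 0.05. Over all tested probe sets 32.6% rose and 38.9% fell. The median log2 fold change, zymolyase minus control, was 0.27 for the members and -0.08 for all tested probe sets. No member reached a 2-fold change, and the log2 fold changes ran from -0.67 for POM34 to 0.96 for NSP1. The ranges of the control and zymolyase arrays did not overlap for 32 members, and this was so for 73.3% of all tested probe sets. The members' signals were at least 4.62 times the 99th percentile of second-species probe sets on the same array, a measure of background. In what follows, ± after a signal in intensity units is the SD of 3 arrays, ± after a log2 fold change is its standard error, and an adjusted p is from that limma fit unless a refit with a changed setting or the exact test of gene pairs is named beside it.

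**Figure D1:**
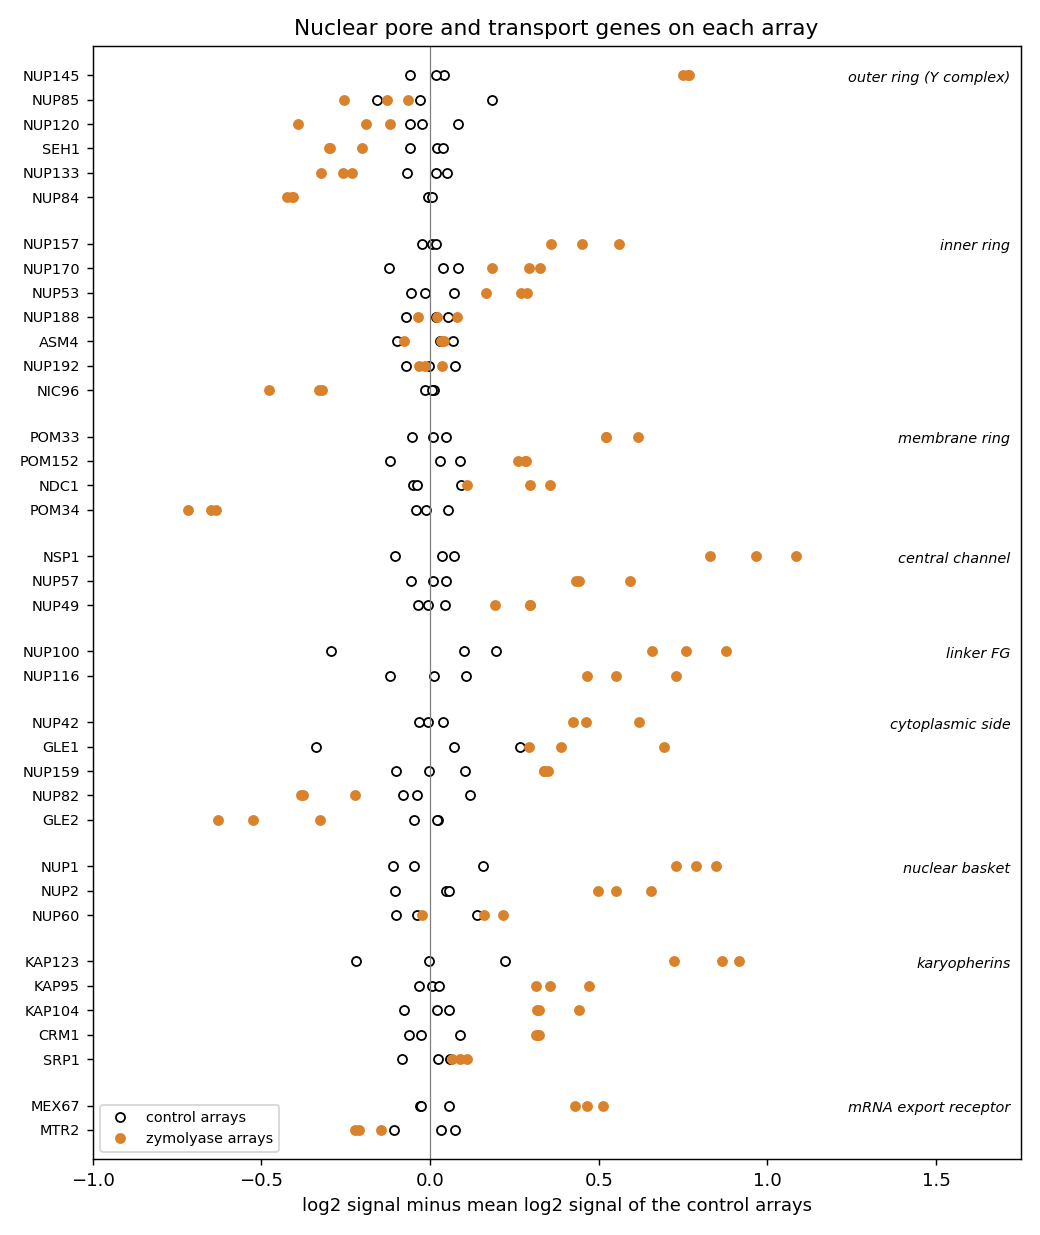
Each row is a gene and each point an array. The x axis is the log2 signal minus the mean log2 signal of the 3 control arrays (open circles); filled circles are the 3 zymolyase arrays. In the outer ring NUP145 lies to the right at about the level of its log2 fold change of 0.76, while NUP120, SEH1, NUP133 and NUP84 lie to the left of all their control arrays.

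Changes in signal varied with gene length over the whole array, and this bears on the members, many of which are long. Among all tested probe sets, 59.1% of those for genes over 3000 nt rose and 9.52% fell, whereas 16.9% of those for genes under 1000 nt rose and 61.0% fell. Of the members, 13 are over 3000 nt long, and 9 of these rose and 2 fell. Only 3 are under 1000 nt. The log2 ratio of the 3' to the 5' control probe set of the actin gene ACT1, a measure of RNA shortening, was 0.90 to 1.13 in the control and 1.22 to 1.34 with zymolyase (two-sided exact permutation test, p = 0.1, the smallest that 3 against 3 arrays allow). Its part in the results was not tested. Each comparison was therefore also made with the length trend of every array removed. Then 11 members rose, 12 fell and 14 did not pass, against 28.8% higher and 40.1% lower among all tested probe sets, and the median log2 fold change was 0.0032 for the members and -0.11 for all. The extremes changed as well, to -0.68 for NUP84 and 0.74 for POM33. For a named gene, the value with the length trend removed is given where it ends a call, turns the direction or differs by over 1.5 times.

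The array correlations of log2 signal were 0.985 to 0.987 within a group and 0.938 to 0.947 between groups. Transcripts typical of α cells gave high signals, with control values of 13248 ± 1346 for MF(ALPHA)1 and 3035 ± 89.7 for STE3, whereas a-cell transcripts were low, at 48.4 ± 11.1 for STE2 and 32.8 ± 6.94 for MFA1. HO and RME1, which an a/α diploid represses, had control signals of 1214 ± 65.2 and 2049 ± 152. URA3 and LEU2, labelled as deleted, had 1802 ± 66.8 and 671 ± 38.5. These levels go against the labelled genotype, and the strain is named here only as labelled. LYS2, MET15 and HIS3, whose alleles the label also lists, were not examined.

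**Figure D2:**
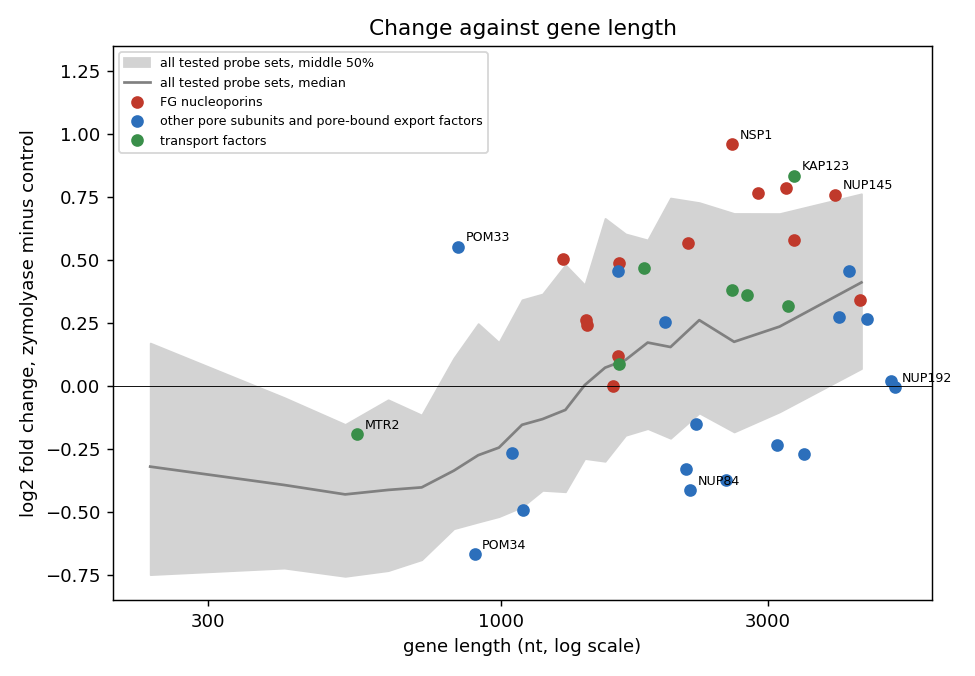
Each coloured point is a member, with gene length on a log x axis in nt and the log2 fold change on the y axis. The grey line and band are the median and middle 50% of all tested probe sets in 20 length classes, whose median is -0.32 in the shortest class and 0.41 in the longest. NSP1 and KAP123 lie above the band and NUP84 below it. NUP192, at 5052 nt, lies to the right of the end of the band at 4404 nt.

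The outer ring is built from the Y complex, which coats the curved pore membrane. Of its 6 members 4 fell, NUP145 rose and NUP85 did not pass (all tested probe sets: 32.6% higher, 38.9% lower). NUP84, which gives the complex its older name, went from 760 ± 2.78 to 571 ± 4.18, groups far apart relative to their spread (-0.41 ± 0.06, adjusted p = 4.5e-05). NUP133, at the end of the stalk of the Y, went from 828 ± 34.5 to 686 ± 22.2 (-0.27 ± 0.06, adjusted p = 0.0019). SEH1, a small β-propeller subunit shared with a complex at the vacuole, went from 822 ± 29.3 to 683 ± 26.4 (-0.27 ± 0.06, adjusted p = 0.0021).

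NUP120, a long arm of the Y, went from 502 ± 26.1 to 428 ± 41.3 (-0.23 ± 0.09, adjusted p = 0.027). That call rested on particular arrays: the adjusted p was 0.099 without control replicate 1 and 0.12 without zymolyase replicate 3, where the log2 fold change was -0.15, and 0.053 without the intensity trend in the spread model. NUP85, whose product binds Seh1, had 444 ± 53.5 and 399 ± 26.7 and overlapping groups (-0.15 ± 0.10, adjusted p = 0.18), and its value ran from -0.23 to -0.06 when single arrays were left out. Once the length trend was removed, NUP85 passed as well (-0.43, adjusted p = 0.0014), and NUP84, NUP133 and NUP120 had larger falls of -0.68, -0.65 and -0.58.

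NUP145 stood apart from the rest of the Y complex. Its product is cut into an FG nucleoporin, Nup145N, and a Y complex subunit, Nup145C, so that a single transcript serves both layers of the pore. The control signals were 665, 654 and 620 and the zymolyase signals 1100, 1097 and 1086. The zymolyase arrays were nearly equal and all well above the control arrays (0.76 ± 0.06, adjusted p = 1.5e-07). The rise was 0.36 when the length trend was removed (adjusted p = 0.00013).

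The inner ring anchors the outer rings and the central FG nucleoporins to the membrane. Its 7 members were divided, with 3 higher, 1 lower and 3 that did not pass (all tested probe sets: 32.6% higher, 38.9% lower). NIC96, the ring's core linker, which binds the central channel proteins, was the member that fell, from 683 ± 6.48 to 527 ± 31.5 (-0.37 ± 0.07, adjusted p = 3.0e-04, and -0.68 with the length trend removed). The large scaffold genes NUP188 and NUP192 had signals of 942 ± 41.2 and 674 ± 34.3 in the control and 956 ± 37.8 and 672 ± 16.4 with zymolyase. Their groups overlapped, with log2 fold changes of 0.02 ± 0.06 (95% interval -0.11 to 0.16, adjusted p = 0.77) and -0.004 ± 0.066 (-0.15 to 0.14, adjusted p = 0.96). Both are among the longest members, at 4968 and 5052 nt, and with the length trend removed both passed as lower (-0.44, adjusted p = 4.5e-05, and -0.47, adjusted p = 3.8e-05).

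NUP157 and NUP170 are paralogs that join the inner ring to the membrane. NUP157 had control signals of 554, 566 and 570 and zymolyase signals of 831, 769 and 722. NUP170 had control signals of 476, 532 and 549 and zymolyase signals of 635, 588 and 650. Every zymolyase array of either gene lay above its control arrays (0.46 ± 0.07, adjusted p = 6.2e-05, for NUP157 and 0.27 ± 0.08, adjusted p = 0.007, for NUP170). Neither call held with the length trend removed, where the values were 0.04 (adjusted p = 0.63) and -0.17 (0.066).

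NUP53 and ASM4, also known as NUP59, are paralogs that carry few FG repeats and can bind the membrane. The NUP53 signals were 347, 379 and 357 in the control and 436, 405 and 441 with zymolyase. The groups did not overlap (0.24 ± 0.08, adjusted p = 0.014), but the call was lost with the length trend removed (0.12, adjusted p = 0.20). The ASM4 signals were 656, 638 and 585 in the control and 644, 640 and 593 with zymolyase. These groups coincided (-0.0008 ± 0.07, 95% interval -0.15 to 0.15, adjusted p = 0.99), and with the length trend removed ASM4 passed as lower (-0.18, adjusted p = 0.034).

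Of the 4 membrane proteins that hold the pore in the nuclear envelope, 3 rose and 1 fell (all tested probe sets: 32.6% higher, 38.9% lower). POM34 had the lowest log2 fold change of all members. Its signals were 512, 502 and 535 in the control and 332, 329 and 314 with zymolyase. The groups were tight and widely separated (-0.67 ± 0.07, adjusted p = 3.8e-06). POM33, which helps new pores to form, went from 1701 ± 60.0 to 2495 ± 96.1 (0.55 ± 0.05, adjusted p = 1.3e-06). POM34 and POM33 are both short genes, of 900 and 840 nt, and kept opposite directions with the length trend removed (-0.52, adjusted p = 4.4e-05, and 0.74, adjusted p = 1.4e-07).

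The other membrane proteins changed less. POM152, a long membrane ring subunit with a large domain in the lumen of the envelope, went from 371 ± 27.0 to 448 ± 3.72 (0.28 ± 0.08, adjusted p = 0.0073). NDC1, which the pore shares with the spindle pole body, went from 635 ± 35.4 to 759 ± 65.8 (0.25 ± 0.08, adjusted p = 0.01). Neither passed when the length trend was removed, at -0.13 (adjusted p = 0.14) for POM152 and 0.003 (0.97) for NDC1.

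The channel itself is lined by Nsp1, Nup49 and Nup57, which form a trimer. All 3 of these genes rose (all tested probe sets: 32.6% higher, 38.9% lower). NSP1, whose product also works in a complex on the cytoplasmic side, had the highest log2 fold change of the members. Its signals were 683, 700 and 620 in the control and 1304, 1413 and 1185 with zymolyase. The lowest zymolyase array was thus far above the highest control array (0.96 ± 0.08, adjusted p = 1.6e-07, and 0.65, adjusted p = 7.0e-06, with the length trend removed). NUP57 went from 514 ± 18.4 to 722 ± 46.3 (0.49 ± 0.07, adjusted p = 4.0e-05, and 0.30 with the length trend removed). NUP49 went from 764 ± 21.7 to 915 ± 37.7 (0.26 ± 0.06, adjusted p = 0.002), and its value with the length trend removed, 0.14, did not pass (adjusted p = 0.053).

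NUP100 and NUP116 are paralogs rich in glycine-leucine-phenylalanine-glycine repeats, and Nup116 also binds Gle2. The NUP100 signals were 211, 150 and 197 in the control and 338, 290 and 311 with zymolyase. The NUP116 signals were 326, 382 and 357 in the control and 587, 519 and 489 with zymolyase. Both rose with no overlap between groups, by 0.76 ± 0.13 (adjusted p = 0.00014) and 0.58 ± 0.09 (adjusted p = 7.4e-05). Removing the length trend left rises of 0.43 (adjusted p = 0.0077) and 0.22 (adjusted p = 0.048).

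The cytoplasmic face carries the platform on which exported mRNA is released. Its 5 genes moved apart, with 3 higher and 2 lower (all tested probe sets: 32.6% higher, 38.9% lower). NUP42, an FG nucleoporin that binds Gle1, went from 108 ± 2.79 to 154 ± 11.2 (0.50 ± 0.13, adjusted p = 0.0032). NUP159, an FG nucleoporin that binds the helicase Dbp5, went from 555 ± 39.6 to 703 ± 3.06 (0.34 ± 0.07, adjusted p = 0.00072). With the length trend removed, NUP159, a gene of 4383 nt, was at -0.09 (adjusted p = 0.30).

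GLE1, the activator of Dbp5, went from 205 ± 42.1 to 280 ± 41.6 (0.46 ± 0.15, adjusted p = 0.016). Its call was the least firm of the rises. The adjusted p was 0.08 without control replicate 1, where the log2 fold change was 0.29, 0.067 without zymolyase replicate 3, 0.059 without the intensity trend and 0.13 with the length trend removed, where the value was 0.27. The genes that fell were NUP82, which holds Nup159 and Nsp1 at the cytoplasmic face, from 341 ± 25.4 to 271 ± 17.4 (-0.33 ± 0.09, adjusted p = 0.0063), and GLE2, an mRNA export factor docked on Nup116, from 928 ± 25.7 to 662 ± 71.6 (-0.49 ± 0.08, adjusted p = 8.5e-05). The value of NUP82 was -0.59 with the length trend removed.

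Of the 3 FG nucleoporins of the nuclear basket, NUP1 and NUP2 rose and NUP60 did not pass (all tested probe sets: 32.6% higher). NUP1, a docking site for importin on the nuclear side, had signals of 182, 158 and 151 in the control and 294, 270 and 282 with zymolyase. Its zymolyase arrays all lay above the control arrays (0.79 ± 0.11, adjusted p = 2.2e-05, and 0.43, adjusted p = 0.0024, with the length trend removed). NUP2, a mobile nucleoporin that helps to unload importin, had 1039, 935 and 1047 in the control and 1582, 1420 and 1474 with zymolyase. It too was higher on every zymolyase array (0.57 ± 0.07, adjusted p = 5.3e-06, and 0.30, adjusted p = 0.001, with the length trend removed). NUP60, which tethers Nup2 to the pore, had 744 ± 65.4 and 807 ± 68.9 and overlapping groups (0.12 ± 0.08, adjusted p = 0.21). Its value ran from 0.07 to 0.19 when single arrays were left out and was -0.07 with the length trend removed.

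**Figure D3:**
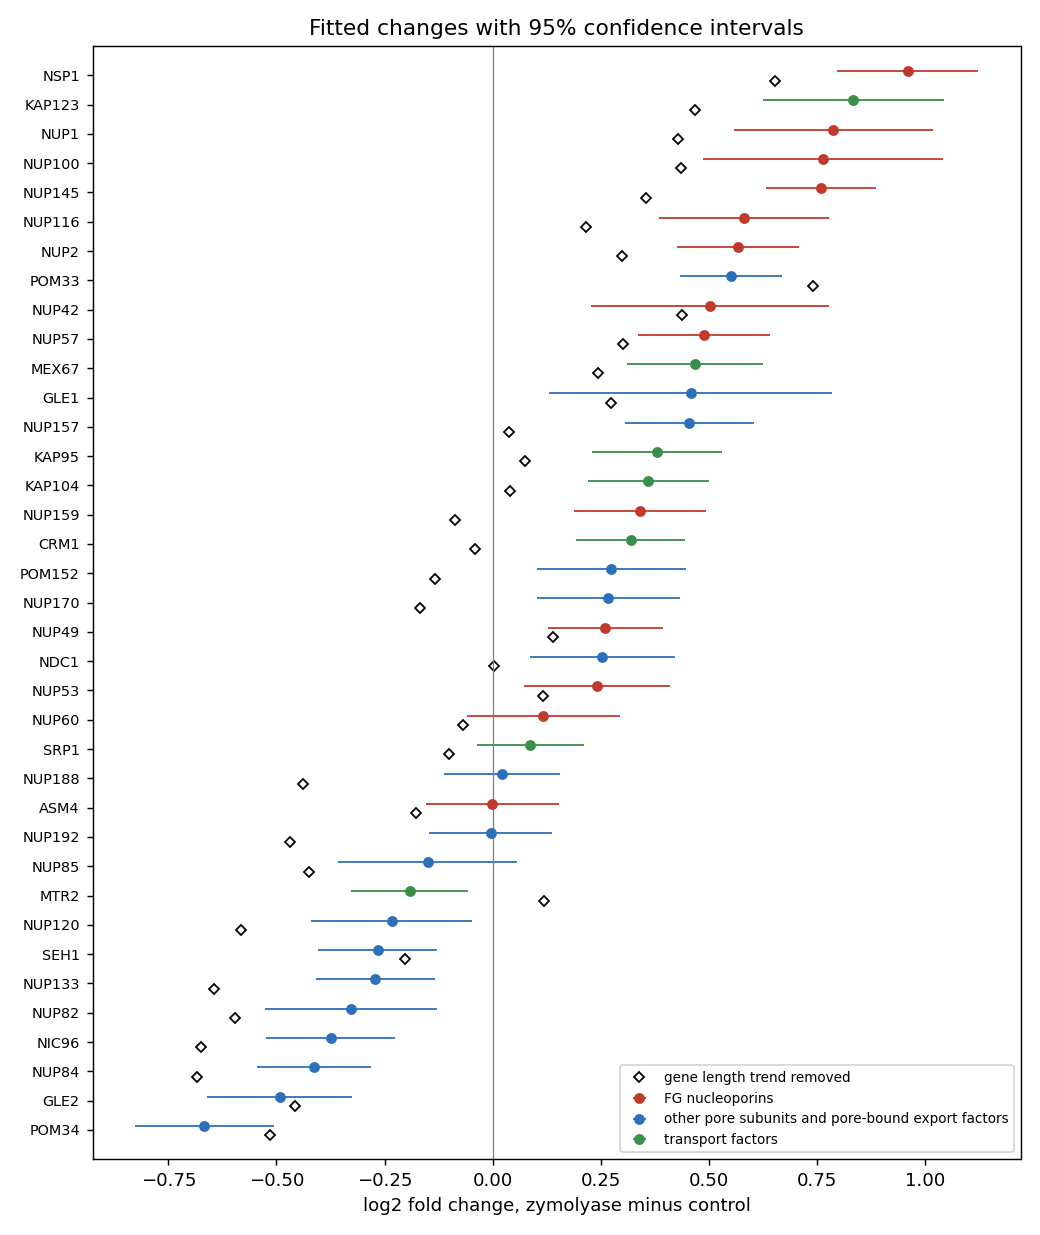
Members are ordered by log2 fold change, zymolyase minus control (x axis). Coloured points with bars are the limma estimates with 95% confidence intervals, red for FG nucleoporins, blue for other pore subunits and pore-bound export factors and green for karyopherins and Mex67-Mtr2, and open diamonds are the estimates with the gene length trend removed. The upper part is mostly red and green and the lower part mostly blue.

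Across the layers, the FG nucleoporins and the rest of the pore differed in their counts. This grouping was made after the values were seen, and it is a description with no test. Of 13 FG nucleoporins, counting NUP145, 11 rose, 0 fell and 2, NUP60 and ASM4, did not pass, with a median log2 fold change of 0.50. Of the 17 other pore subunits and pore-bound export factors, 6 rose, 8 fell and 3 did not pass, with a median of -0.15. Over all tested probe sets 32.6% rose and 38.9% fell, with a median of -0.08. Of the 17 others 35.3% rose and 47.1% fell, and of the FG nucleoporins 84.6% and 0%. The median gene lengths of the classes were 2163 and 2235 nt, with ranges of 1293 to 4383 nt and 840 to 5052 nt. The part of gene length in the difference between the classes was not tested. With the length trend removed, 8 FG nucleoporins rose, ASM4 fell and 4 did not pass (median 0.30), and in the other class POM33 rose, 11 fell and 5 did not pass (median -0.44). All tested probe sets were then 28.8% higher and 40.1% lower, with a median of -0.11.

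The 5 karyopherins carry cargo across the channel, and 4 of them rose, against 32.6% of all tested probe sets. Once the length trend was removed, 1 of the 5 rose and 4 did not pass, where 28.8% of all tested probe sets rose. KAP123, an importin for ribosomal proteins and histones, went from signals of 730, 628 and 851 in the control to 1331, 1205 and 1379 with zymolyase. The groups were clear of each other although the control arrays were scattered (0.83 ± 0.10, adjusted p = 5.4e-06, and 0.47, adjusted p = 0.00072, with the length trend removed). CRM1, the main exportin for proteins with a leucine-rich export signal, went from 1115 ± 61.5 to 1389 ± 4.48 (0.32 ± 0.06, adjusted p = 0.00028), and KAP104, an importin for mRNA-binding proteins, from 794 ± 38.0 to 1019 ± 50.7 (0.36 ± 0.06, adjusted p = 0.00025). With the length trend removed, CRM1 was at -0.04 (adjusted p = 0.56) and KAP104 at 0.04 (0.59).

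SRP1 and KAP95 encode importin α, which recognises the classical import signal, and importin β, which carries the pair through the pore. The KAP95 signals were 503, 491 and 511 in the control and 624, 695 and 642 with zymolyase. KAP95 rose with no overlap (0.38 ± 0.07, adjusted p = 0.00027), though not with the length trend removed (0.07, adjusted p = 0.36). The SRP1 signals were 1365, 1269 and 1401 in the control and 1430, 1449 and 1405 with zymolyase. The groups of SRP1 barely parted (0.09 ± 0.06, 95% interval -0.04 to 0.21, adjusted p = 0.18). The value was 0.046 without control replicate 2 and -0.10 with the length trend removed.

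MEX67 and MTR2 encode the subunits of the mRNA export receptor. The MEX67 signals were 383, 360 and 362 in the control and 525, 496 and 508 with zymolyase. They rose without overlap (0.47 ± 0.07, adjusted p = 7.2e-05, and 0.24, adjusted p = 0.0082, with the length trend removed). The MTR2 signals were 1369, 1328 and 1207 in the control and 1124, 1175 and 1115 with zymolyase. They fell (-0.19 ± 0.06, adjusted p = 0.014), a call that was lost without control replicate 1 (adjusted p = 0.058). MTR2 is the shortest member, at 555 nt, and with the length trend removed its value was 0.12 (adjusted p = 0.11).

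The differences between paralogs and between partner subunits were tested directly, from the log2 ratio of both genes on each array. Among 5 pairs, with two-sided exact permutation tests that cannot give a p under 0.1, none could pass 0.05. The ratio of MEX67 to MTR2 was higher with zymolyase by 0.66, with no overlap (exact p = 0.1, adjusted over the 5 pairs 0.167), and by 0.13 with the length trend removed (exact p = 0.2). The ratio of SRP1 to KAP95 was lower with zymolyase (difference -0.29, exact p = 0.1, adjusted 0.167) and that of NUP53 to ASM4 higher by 0.24 (exact p = 0.1, adjusted 0.167), again with no overlap. With the length trend removed the SRP1 to KAP95 difference was -0.17. The ratios of NUP170 to NUP157 (difference -0.19, exact p = 0.2, adjusted 0.25) and of NUP116 to NUP100 (-0.18, exact p = 0.6, adjusted 0.6) overlapped between groups, and without control replicate 2 the latter difference was 0.017.

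**Figure D4:**
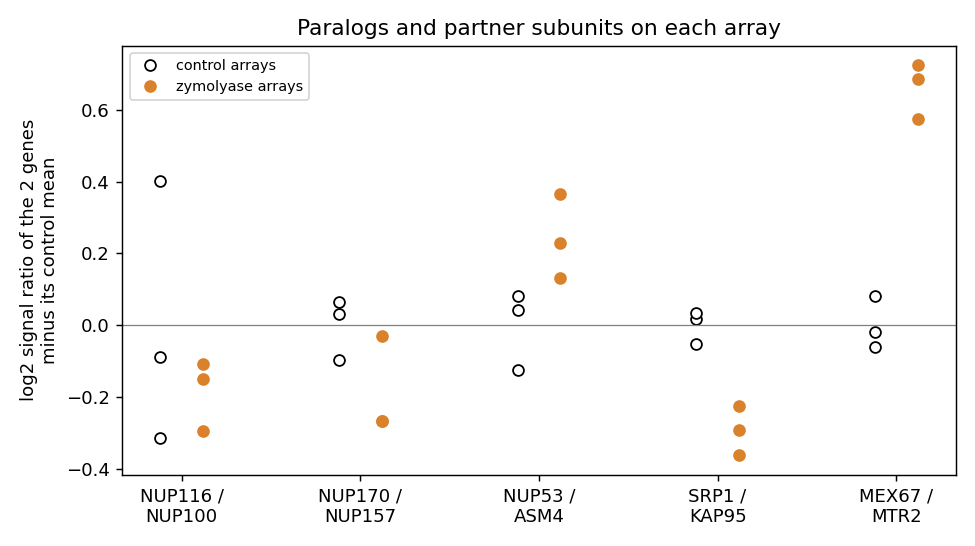
For each pair of genes on the x axis, points are the log2 signal ratio of the first to the second on each array, minus the mean ratio of the control arrays (y axis). Open circles are control and filled circles zymolyase arrays. The groups are separate for NUP53 and ASM4, for SRP1 and KAP95 and for MEX67 and MTR2, and overlap for the other pairs.

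The rest of the nuclear transport machinery was read from a list of 49 further genes, all of which were measured. Of these 13 rose, 20 fell and 16 did not pass, against the 32.6% and 38.9% of all tested probe sets given above. With the length trend removed 8 rose and 30 fell, against 28.8% higher and 40.1% lower among all tested probe sets. Among 16 mRNA export genes 4 rose and 8 fell, and among 8 genes of the Ran cycle 2 rose and 4 fell. Among 10 further karyopherins 4 rose and 1 fell, among 11 pore-associated genes 3 rose and 5 fell, and among 4 ribosome export genes 0 rose and 2 fell. The balance of the further karyopherins turned with the length trend removed, with 1 higher and 7 lower, and the pore-associated genes then also had 1 higher and 7 lower. The mRNA export genes then had 4 higher and 9 lower, the Ran cycle genes 2 and 4, and the ribosome export genes 0 and 3. SEC13, the remaining Y complex subunit on this list, named here after its value was seen, fell from 2826 ± 73.3 to 2164 ± 198 (-0.39 ± 0.07, adjusted p = 0.00015, and -0.23 with the length trend removed).

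The largest rises and falls on that list were of mRNA export, pore-associated, Ran cycle and ribosome export genes. NPL3, an mRNA-binding protein of export and splicing, went from 3648 ± 152 to 7709 ± 288 (1.08 ± 0.05, adjusted p = 4.0e-09). ESC1, which links silent chromatin to the nuclear envelope, went from 308 ± 35.1 to 614 ± 33.2 (0.998 ± 0.092, adjusted p = 7.1e-07, and 0.54 with the length trend removed). GSP2, one of the yeast Ran genes, went from 1537 ± 119 to 2689 ± 248 (0.81 ± 0.07, adjusted p = 7.6e-07). The probe sets of GSP2 and of GSP1, also a Ran gene, may share signal, which was not tested.

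The falls were led by ECM1, an export factor of the large ribosomal subunit, from 638 ± 41.1 to 249 ± 9.39 (-1.36 ± 0.08, adjusted p = 1.4e-08). SUS1, which belongs both to the SAGA coactivator and to the mRNA export complex TREX-2, went from 626 ± 52.7 to 275 ± 28.2 (-1.19 ± 0.09, adjusted p = 1.7e-07). APQ12, a nuclear envelope protein needed for normal pores, went from 2605 ± 161 to 1405 ± 48.7 (-0.89 ± 0.06, adjusted p = 3.7e-08, and -0.57 with the length trend removed). Ranges that did not overlap between groups were a condition for naming these rises and falls, and 73.3% of all tested probe sets met it.

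**Figure D5:**
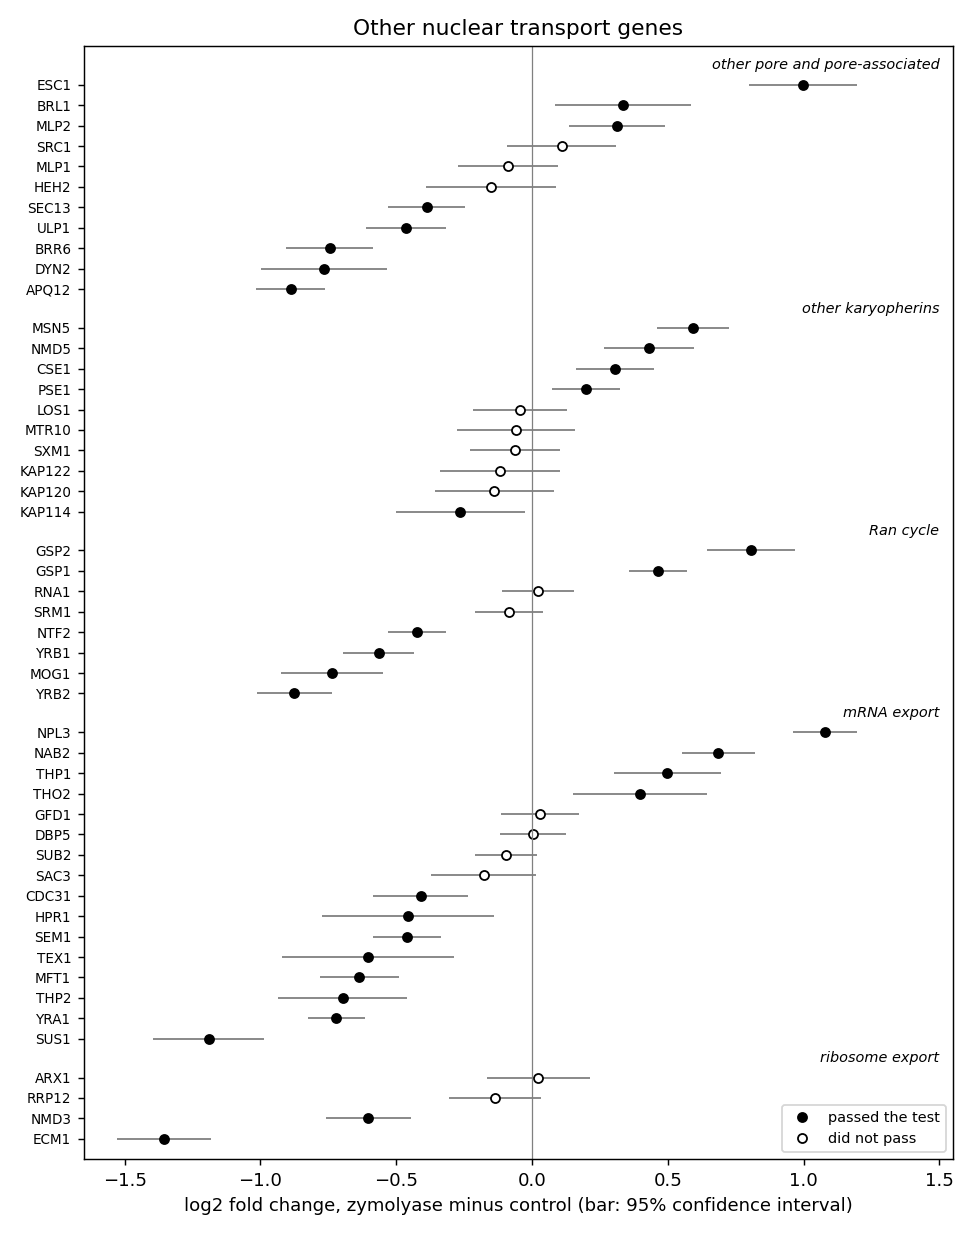
The 49 further nuclear transport genes are shown by role, with log2 fold change, zymolyase minus control, on the x axis and bars for 95% confidence intervals. Filled points passed the test and open points did not. NPL3 at 1.08 and ECM1 at -1.36 mark the ends of the range.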

How the data were processed

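The authors deposited 1 linear intensity per probe set and array. The submitters' processing notes name MAS5 and no version. The trimmed means of the arrays were 500.41 to 500.43, so the arrays were scaled to a common level and a change in total mRNA cannot be seen. Array columns were matched to samples by accession and groups taken from titles. Gene names came from the platform annotation, updated through RefSeq genes (assembly R64). The 1747 annotated probe sets that did not match exactly 1 gene of that table were taken as the second species (Schizosaccharomyces pombe) and as background. Any probe sets annotated to several genes were counted among them. Of 5498 S. cerevisiae probe sets, 5394 had a mean signal above the 90th percentile of second-species means (10.1). Members were chosen by symbol, and all passed this filter.

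The fit used log2 signals without an offset and limma (version 3.58.1, R 4.3.3, eBayes with an intensity trend), and the procedure was tested on simulated arrays. Gene lengths are from RefSeq, and 96.8% are multiples of 3. They were read as spans from start to stop codon with introns included, which exceed the coding length in genes with introns. To remove the length trend, deviations of probe sets from their means were regressed locally (span 0.5) on log2 length in every array and the fitted values subtracted. The members and lists were chosen with earlier results of these data known. All members are named; array values are given for the 8 largest changes and the 5 pairs, and the other list is represented by its 3 largest rises and 3 largest falls without overlap between groups. The number of arrays limits the precision. Protein and promoter sequences were not analysed here.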

Additional observations from a re-analysis of the deposited data

How the results depend on the processing

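The counts of 22 members higher and 9 lower were the same with quantile normalization, median centring, an offset of 50, a 99th percentile filter or none, and without probe sets that may detect more than 1 transcript. The replicate block also gave 22 and 9; same-numbered arrays did not deviate together (correlations of 0.047, 0.066 and 0.016). Without the intensity trend they were 21 and 8. With single arrays left out, 21 to 22 were higher and 7 to 9 lower. The median log2 fold change of the members was 0.22 with median centring, and that of all tested probe sets was -0.13. The difference between these medians was 0.351, as in the main fit. Removing the gene length trend changed most: 11 members (median 0.0032) and 8 of the 49 other transport genes were higher. The share of all tested probe sets that rose was then 28.8%. The signs of 8 members then turned, with values of -0.10 for SRP1, -0.041 for CRM1, 0.12 for MTR2, -0.44 for NUP188, -0.068 for NUP60, -0.088 for NUP159, -0.17 for NUP170 and -0.13 for POM152. Members near 0 changed sign in other settings: NUP188 was -0.025 with median centring, and with single arrays left out NUP188 ran from -0.014 to 0.050, NUP192 from -0.040 to 0.033 and ASM4 from -0.049 to 0.037. The difference between NUP116 and NUP100 ran from -0.34 to 0.017. The cause was not tested. Counting every probe set of a member was not run, as each member has 1.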

Other observations

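Some members are neighbours in the genome. In the RefSeq gene table of assembly R64, NSP1 and NUP192 have 0 protein-coding entries between them, and so do GLE2 and KAP123. The log2 fold changes within these neighbours were unlike, at 0.96 for NSP1 and -0.004 for NUP192, and at -0.49 for GLE2 and 0.83 for KAP123. NUP157, at 0.46, is separated from GLE2 by 1 protein-coding entry.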
